A study of Mus musculus with 24 samples.

Results

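Gpnmb, Lgals3, Cd68, Trem2, Tyrobp, Clec7a, Lpl, Spp1, Cst7 and Aif1 are genes of phagocytes and of macrophages that have taken up lipid. They were chosen by name, from knowledge of these cells and with earlier results of these data known. Their rows were read in all 24 libraries of the study. Of the 10 genes, 9 were measured and passed the filter on low counts, out of 17167 genes that passed of 21965 listed. Clec7a was not analysed here.

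The tissue came from OL-Ribotag mice, in which a tamoxifen-induced Cre places an HA tag on the ribosomal protein RPL22 of oligodendrocytes (OLs). Naive mice and mice on day 2, 10 or 42 after contusive spinal cord injury (SCI) at T9 with 50 kdyn (dpi 2, dpi 10 and dpi 42) were compared, and the naive mice carried the same alleles. The labels give females of 10 to 12 weeks. The methods of the study give a younger age at injury, and an age above the labels' range for the naive and dpi 42 mice, which were collected together. Mice on dpi 2 and dpi 10 were thus younger than the others, and in comparisons between these sets age and time after SCI cannot be told apart. Cords of 2 mice were pooled, with 3 pools in each group. Every pool was sequenced as total spinal cord RNA and as the RNA pulled down with HA-tagged ribosomes, called OL here. The Cre driver is also active in Schwann cells, and the spinal segment spanned the lesion, so that neither fraction was a culture of 1 cell type.

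When myelin and cells break down, microglia and macrophages take up the debris, digest it in lysosomes and store its cholesterol and fatty acids as lipid droplets. TREM2 is a surface receptor for lipids and lipoproteins that signals through the adaptor TYROBP, also called DAP12, and is required for the full lipid-associated state. Cells in that state make lysosomal and lipid-handling proteins such as CD68, GPNMB, CST7 and LPL and the secreted proteins osteopontin (Spp1) and galectin-3 (Lgals3).

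Libraries held 25840127 to 32987841 counts, so that 3 counts were 0.0840 to 0.127 CPM (counts scaled to library size by TMM). Summed CPM of 9 mature OL markers, Mbp and Mog among them, was 15684 to 19874 in total RNA and 75730 to 104528 in OL. The 7 pan-myeloid markers Ptprc, Itgam, Csf1r, Fcer1g, Laptm5, Cd53 and Spi1 summed to 161 to 193 CPM in naive total RNA, and to 745 to 805, 1305 to 1657 and 842 to 1153 CPM on dpi 2, 10 and 42. In OL the same sum was 10.6 to 16.8, 42.0 to 62.0, 94.9 to 141 and 59.7 to 102 CPM, so that this sum was lower in OL than in total RNA and higher after SCI than in naive tissue in both. The 10 homeostatic microglia markers differed from this, with OL sums of 213 to 330 CPM in naive tissue and of 237 to 346, 318 to 330 and 245 to 318 CPM on dpi 2, 10 and 42, which overlapped with naive. No pan-myeloid marker was at 0 in all libraries of a group. In bulk tissue, more cells of a type and more RNA per cell cannot be told apart. Summed CPM of 6 astrocyte markers varied widely between OL libraries. It was 1725 to 8270 in naive OL and 2405 to 8577, 2500 to 6658 and 2590 to 13390 on dpi 2, 10 and 42. In total RNA it was 4324 to 5346 in naive tissue and 6294 to 6470, 7096 to 7640 and 6552 to 7933 on these days. The part of carried-over RNA in the OL values was not tested.

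Some libraries stood apart. The OL library of naive pool 3 held 156 CPM over the Schwann cell markers Prx, Pmp2, Ncmap and Sox2. The other naive OL libraries held 22.1 and 25.6 CPM. Total RNA of that pool held 64.9 CPM against 45.1 and 44.7 CPM. After SCI the OL sums were 96.2 to 160, 120 to 156 and 172 to 191 CPM on dpi 2, 10 and 42. Naive pool 3 was thus high among naive OL libraries but within the range of dpi 2. Fits without it compare naive OL libraries of low Schwann cell markers with SCI libraries of higher ones. Both libraries of dpi 2 pool 2 held 2414 and 2604 counts on 4 Y-linked genes, against at most 13 in the other 22 libraries, although the labels give females. For 2 of the dpi 42 libraries the title and the description conflict, and groups were taken from the description. These are OL replicate 1 and total RNA replicate 2, which form 1 pool. They held 81462 and 17881 CPM over the mature OL markers, within the ranges of OL and of total RNA, so that these sums go with the descriptions. Where a member's call changed without these libraries, both values are given.

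Promoters of the 5 members whose windows held a searched motif are shown first, because 3 of them hold a match to the pattern TGANTCA next to the start site. The windows are RefSeq sequences on GRCm38.p6, 250 bases before to 50 bases after the start of the transcript, 5′ to 3′ on the strand of the gene. Windows were on hand for 8 of the 10 genes. Tyrobp and Lpl had no entry. Capitals mark the AP-1-like pattern TGANTCA, in which any middle base counts, and the PU.1 motif GAGGAAG. Each was searched on both strands, and a match on the other strand is in capitals as its reverse complement.
Gpnmb, chr6:49036268-49036567, plus strand: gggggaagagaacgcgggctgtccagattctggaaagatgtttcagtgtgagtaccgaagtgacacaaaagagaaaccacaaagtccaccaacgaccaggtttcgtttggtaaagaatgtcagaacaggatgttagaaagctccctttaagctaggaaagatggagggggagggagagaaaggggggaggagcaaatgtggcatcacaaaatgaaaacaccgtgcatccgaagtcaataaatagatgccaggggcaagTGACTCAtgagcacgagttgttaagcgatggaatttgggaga
Cst7, chr2:150570165-150570464, plus strand: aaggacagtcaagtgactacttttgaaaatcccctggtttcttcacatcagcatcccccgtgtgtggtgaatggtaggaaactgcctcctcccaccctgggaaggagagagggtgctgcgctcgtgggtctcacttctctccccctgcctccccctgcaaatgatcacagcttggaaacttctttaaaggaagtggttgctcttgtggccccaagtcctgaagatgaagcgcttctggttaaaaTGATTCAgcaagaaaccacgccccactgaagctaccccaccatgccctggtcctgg
Trem2, chr17:48346151-48346450, plus strand: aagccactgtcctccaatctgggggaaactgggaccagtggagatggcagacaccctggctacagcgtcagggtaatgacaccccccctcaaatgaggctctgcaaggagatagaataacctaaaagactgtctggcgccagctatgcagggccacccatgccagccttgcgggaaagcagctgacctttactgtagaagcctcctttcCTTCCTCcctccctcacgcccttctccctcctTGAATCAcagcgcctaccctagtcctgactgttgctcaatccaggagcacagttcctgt
Cd68, chr11:69666121-69666420, minus strand: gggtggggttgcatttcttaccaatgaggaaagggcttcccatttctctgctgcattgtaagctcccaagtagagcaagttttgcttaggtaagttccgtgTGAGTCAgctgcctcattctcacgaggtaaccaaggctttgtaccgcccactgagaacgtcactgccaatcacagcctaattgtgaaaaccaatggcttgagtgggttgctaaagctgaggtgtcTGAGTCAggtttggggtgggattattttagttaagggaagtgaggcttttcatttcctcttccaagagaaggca
Spp1, chr5:104434861-104435160, plus strand: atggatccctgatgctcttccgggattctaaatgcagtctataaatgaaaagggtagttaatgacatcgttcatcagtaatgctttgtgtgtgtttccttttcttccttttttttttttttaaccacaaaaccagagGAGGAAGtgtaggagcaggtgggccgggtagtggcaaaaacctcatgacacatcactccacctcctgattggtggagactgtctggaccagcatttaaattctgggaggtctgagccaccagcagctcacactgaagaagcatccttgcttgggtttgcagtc

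The AP-1-like pattern TGANTCA was present in 4 of the 8 members with a window (Gpnmb, Cst7, Trem2 and Cd68), and in 8.97% of all 27025 genes with a window. Both counts allow any middle base. In Cst7, Trem2 and Gpnmb its first base lay at -6, -9 and 9 from the start site, and Cd68 held it at -24 and at -149. The middle base, left free in the search, was T in Cst7, A in Trem2, C in Gpnmb and G at both Cd68 sites. The PU.1 motif, the recognition sequence of a myeloid transcription factor, was present in Trem2 and Spp1 (at -41 and -113) and in 15.4% of genes. The 2 motifs do not overlap in the Trem2 window. CACGTG and CATGTG, which MiT/TFE factors bind, the NF-kB motif GGGANTTCC and the cAMP response element TGACGTCA were found in no member's window and in 8.09%, 15.9%, 1.92% and 2.03% of genes. These matches describe the letters of the windows and are no evidence of binding.

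In total RNA, all 9 measured members rose at each time point after SCI (log2 fold change over 1 and q under 0.05, edgeR quasi-likelihood test with Benjamini-Hochberg adjustment over all genes). Of all tested genes, 10.0% rose on dpi 2, 9.20% on dpi 10 and 6.66% on dpi 42. The median log2 fold change of the members was 4.38, 4.85 and 4.57, against -0.10, -0.10 and -0.08 over all genes. In OL the 9 members also rose at each time point, where 10.2%, 6.82% and 8.54% of genes did, with member medians of 3.57, 4.94 and 5.11 against 0 over all genes. The 3 time points share the naive libraries. Together the members took 0.0175% to 0.0229% of counts in naive total RNA and 0.422% to 0.598% on dpi 2 and dpi 10, and at most 0.0422% in any OL library.

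**Figure D1:**
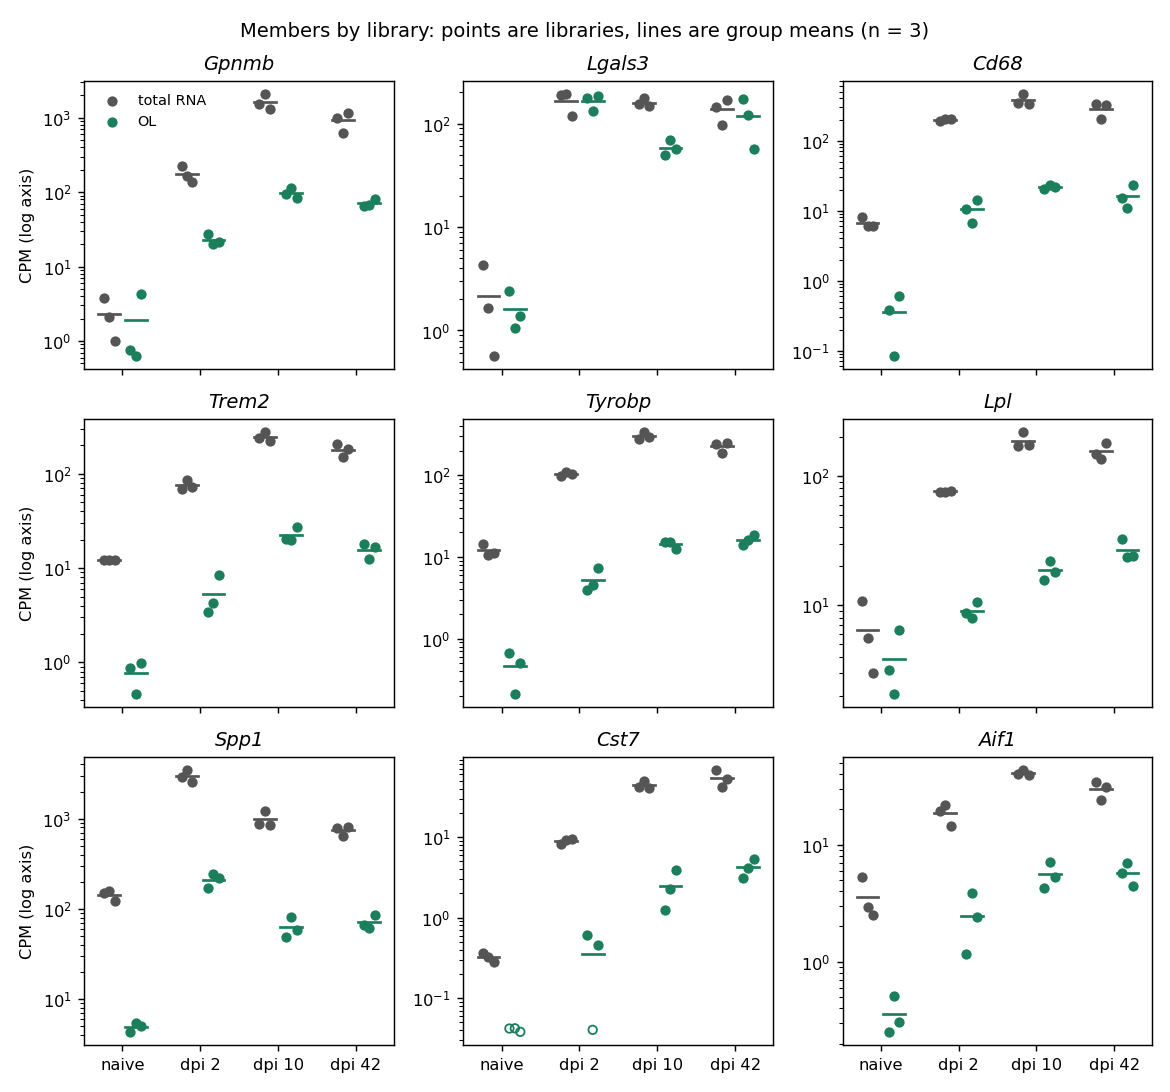
Level of the 9 measured members in each library, in CPM on a log axis, for total RNA (grey) and OL (green), with a line at each group's mean (n = 3). Open circles mark libraries with no count, drawn at the level of 1 count. Total RNA after SCI lies above naive for each member, Spp1 peaks on dpi 2, and Lgals3 is the member whose OL and total RNA points lie together on dpi 2.

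Trem2, the receptor of the pair, was at 12.1, 12.2 and 12.2 CPM in naive total RNA, at 69.0, 86.6 and 71.9 CPM on dpi 2, at 243, 277 and 223 CPM on dpi 10 and at 206, 149 and 184 CPM on dpi 42. Each SCI group lay above the naive libraries without overlap, and dpi 10 and dpi 42 lay above dpi 2. The log2 fold change against naive was 2.64 ± 0.24 (SE), 4.34 ± 0.26 and 3.88 ± 0.26. Tyrobp, the adaptor, followed with 3.11 ± 0.21, 4.65 ± 0.22 and 4.23 ± 0.22, from 10.7 to 14.4 CPM in naive total RNA to 279 to 336 CPM on dpi 10.

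In OL both genes were scarce. Trem2 was at 0.882, 0.465 and 0.994 CPM in naive OL, at 3.40, 4.29 and 8.42 CPM on dpi 2, at 20.2, 20.1 and 27.0 CPM on dpi 10 and at 17.9, 12.5 and 16.8 CPM on dpi 42. Tyrobp was at 0.212 to 0.672 CPM in naive OL and at 12.6 to 15.3 CPM on dpi 10. These OL levels rose by a log2 fold change of 2.77 ± 0.31, 4.83 ± 0.31 and 4.32 ± 0.30 for Trem2 and of 3.50 ± 0.29, 4.94 ± 0.28 and 5.11 ± 0.28 for Tyrobp.

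Cd68, a lysosomal membrane protein of phagocytes, was at 8.03, 6.09 and 6.12 CPM in naive total RNA and at 191, 205 and 205 CPM on dpi 2. It was at 348, 462 and 336 CPM on dpi 10 and at 339, 204 and 318 CPM on dpi 42. The dpi 42 libraries overlapped those of dpi 2 and dpi 10. The log2 fold change against naive was 4.89 ± 0.32, 5.82 ± 0.33 and 5.41 ± 0.33 in total RNA and 4.82 ± 0.41, 5.87 ± 0.41 and 5.47 ± 0.41 in OL, where it went from 0.0846 to 0.612 CPM in naive tissue to 20.2 to 22.9 CPM on dpi 10. Aif1, which encodes the actin-binding protein IBA1 of microglia and macrophages, had the smallest total change of the members on dpi 2, 2.37 ± 0.34, with 3.52 ± 0.35 on dpi 10 and 3.06 ± 0.35 on dpi 42. In OL its log2 fold change was 2.79 ± 0.42, 3.96 ± 0.42 and 3.99 ± 0.42.

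Gpnmb, a transmembrane glycoprotein of lysosome-rich phagocytes, had the largest total change of the members on dpi 10 and dpi 42. Its naive total RNA libraries were at 3.74, 2.13 and 1.01 CPM, and it was at 224, 163 and 139 CPM on dpi 2, at 1536, 2071 and 1292 CPM on dpi 10 and at 983, 621 and 1149 CPM on dpi 42. The dpi 10 libraries lay above all others, and Gpnmb ranked 16 to 34 by counts among all genes there, against 11730 or lower in naive tissue. The fold change against naive was 76.5, 712 and 400.5 (log2 6.26 ± 0.52, 9.48 ± 0.59 and 8.65 ± 0.57). The change differed between dpi 10 and dpi 2 (log2 3.22 ± 0.43, q = 6.66e-05).

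In OL, Gpnmb was at 0.756, 0.635 and 4.28 CPM in naive tissue, at 27.0, 20.2 and 21.4 CPM on dpi 2, at 93.0, 113 and 83.4 CPM on dpi 10 and at 64.6, 66.1 and 80.8 CPM on dpi 42. The highest naive value was that of pool 3, the naive OL library with the highest Schwann cell markers. The log2 OL change was 3.57 ± 0.49, 5.64 ± 0.52 and 5.19 ± 0.51, and 5.03 ± 0.39, 7.11 ± 0.40 and 6.65 ± 0.40 without naive pool 3, an alternative chosen after seeing the data.

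Lpl, the lipoprotein lipase that frees fatty acids from triglyceride-rich lipoproteins, was at 10.9, 5.58 and 2.98 CPM in naive total RNA and at 75.7, 75.5 and 76.0 CPM on dpi 2. It was at 170, 217 and 172 CPM on dpi 10 and at 148, 136 and 179 CPM on dpi 42, all above naive. The log2 total change was 3.55 ± 0.35, 4.85 ± 0.37 and 4.57 ± 0.37. In OL it was at 3.15, 2.07 and 6.39 CPM in naive tissue and at 8.73, 7.98 and 10.5 CPM on dpi 2, a log2 change of 1.22 ± 0.35 (q = 0.00855), the smallest OL change of the members. That call was lost without naive OL replicate 1 (1.03, q = 0.0529) or naive OL replicate 2 (0.86, q = 0.0719), and with only the groups compared in the fit (q = 0.0844). The OL change was 2.26 ± 0.35 on dpi 10 and 2.78 ± 0.36 on dpi 42.

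Cst7, an inhibitor of lysosomal cathepsins, was at 0.361, 0.322 and 0.285 CPM in naive total RNA, at 8.17, 9.15 and 9.49 CPM on dpi 2, at 41.7, 49.9 and 40.9 CPM on dpi 10 and at 67.5, 42.1 and 53.1 CPM on dpi 42. It rose by a log2 fold change of 4.77 ± 0.52, 7.08 ± 0.55 and 7.38 ± 0.55. In naive OL it had no count in 3 of 3 libraries, and on dpi 2 it was at 0.605, 0 and 0.459 CPM, so that those groups overlapped. On dpi 10 it was at 1.24, 2.24 and 3.88 CPM and on dpi 42 at 3.11, 4.14 and 5.36 CPM. Against a floor of 3 counts per library in naive OL, mean OL levels were at least 20.04- and 34.3-fold higher on dpi 10 and 42. On dpi 2 the mean was 2.89 times that floor, which is no lower bound, as 1 of 3 libraries had no count. The fitted OL change on dpi 2 was past the threshold (q = 0.00194) and was not past it with only the groups compared in the fit (q = 0.145).

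Spp1, which encodes the secreted phosphoprotein osteopontin and is also known from motor neurons of the intact cord, followed another time course. It was at 150, 156 and 121 CPM in naive total RNA, at 2886, 3446 and 2558 CPM on dpi 2, at 881, 1209 and 853 CPM on dpi 10 and at 785, 637 and 806 CPM on dpi 42. On dpi 2 it ranked 7 to 9 by counts among all genes. The log2 total change was 4.38 ± 0.21, 2.78 ± 0.20 and 2.38 ± 0.20, and the levels of dpi 10 and dpi 42 lay below that of dpi 2 by -1.59 ± 0.19 (q = 1.71e-05) and -2.00 ± 0.19 (q = 1.39e-06). Summed CPM of 6 motor neuron markers was 265 to 341 in naive total RNA, 146 to 186 on dpi 2, 128 to 143 on dpi 10 and 188, 382 and 175 on dpi 42, where 382 CPM came from the library of conflicting labels. The part of motor neurons in the Spp1 level was not tested. Part of the Spp1 exons, 309 bases or 18.8%, is shared with the unclassified transcript Gm42793 of the same strand, and reads there cannot be told apart.

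In OL, Spp1 was at 4.33, 5.42 and 4.97 CPM in naive tissue, at 169, 243 and 219 CPM on dpi 2, at 48.9, 81.3 and 58.5 CPM on dpi 10 and at 66.8, 60.7 and 84.5 CPM on dpi 42. The peak on dpi 2 was thus present in both fractions, and the OL libraries of dpi 10 and dpi 42 overlapped. The log2 OL change was 5.42 ± 0.23, 3.68 ± 0.22 and 3.85 ± 0.22.

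Lgals3, the galactoside-binding lectin galectin-3, was at 4.26, 1.64 and 0.570 CPM in naive total RNA, at 188, 192 and 119 CPM on dpi 2, at 155, 177 and 148 CPM on dpi 10 and at 145, 97.6 and 170 CPM on dpi 42. The 3 SCI groups overlapped with each other and lay above naive, with log2 changes of 6.27 ± 0.52, 6.21 ± 0.52 and 5.99 ± 0.51. Its OL levels on dpi 2 and dpi 42 overlapped those of total RNA. They were at 2.40, 1.06 and 1.38 CPM in naive tissue, at 178, 131 and 185 CPM on dpi 2, at 49.7, 69.4 and 56.3 CPM on dpi 10 and at 174, 120 and 56.8 CPM on dpi 42. Without the libraries of conflicting labels (174 CPM in OL and 97.6 CPM in total RNA), OL and total RNA did not overlap on dpi 42.

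The OL level of Lgals3 on dpi 10 was lower than on dpi 2 by a log2 difference of -1.50 ± 0.41 (q = 0.0104), and by -1.33 (q = 0.0584, past no threshold) without dpi 10 OL replicate 1. Its OL change against naive was 6.68 ± 0.54, 5.18 ± 0.51 and 6.18 ± 0.53.

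**Figure D2:**
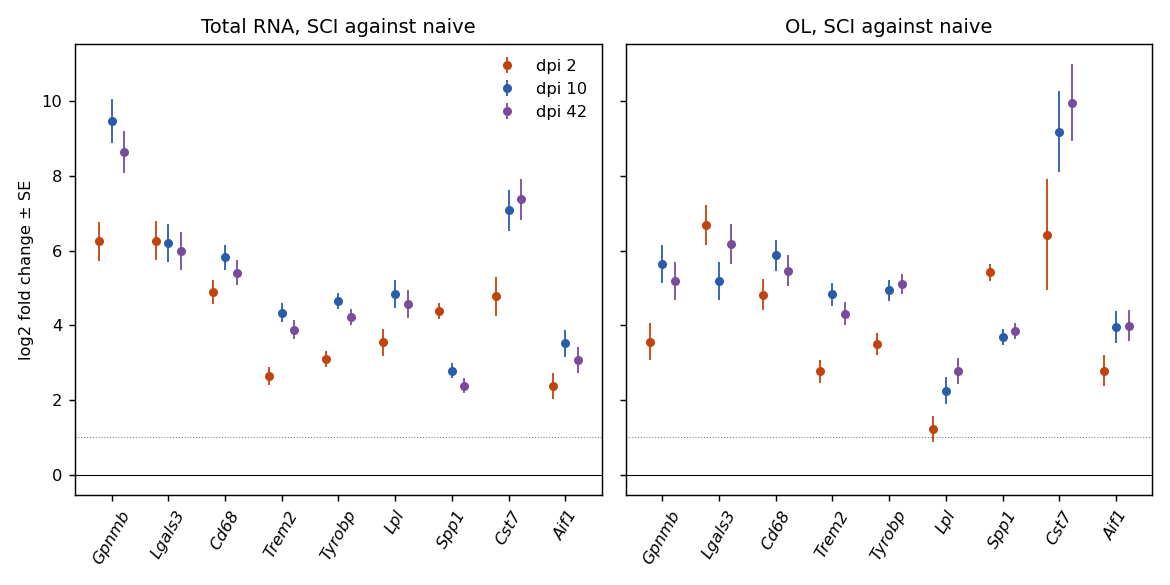
Log2 fold change of each member against naive in total RNA (left) and in OL (right) on dpi 2, 10 and 42. Bars are the SE derived from the edgeR test (3 libraries per group), and a dotted line lies at 1. All points lie above 1, Gpnmb reaches 9.48 in total RNA against 5.64 in OL on dpi 10, and the Cst7 values in OL rest on naive libraries without a count.

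Per length of exon, the order of the members in total RNA changed with injury. In naive tissue it was Spp1 (86.4 CPM per kb), Tyrobp (18.1), Cd68 (5.37), Trem2 (2.46), Aif1 (2.32), Lgals3 (1.16), Lpl (0.619), Gpnmb (0.352) and Cst7 (0.327), and from Trem2 downwards each overlapped the next. On dpi 10 it was Spp1 (595), Tyrobp (456), Cd68 (304), Gpnmb (251), Lgals3 (85.9), Trem2 (50.0), Cst7 (44.8), Aif1 (26.7) and Lpl (17.8). Cd68 overlapped Gpnmb there, and Trem2 overlapped Cst7. Gpnmb thus ranked 8 of 9 in naive tissue and 4 of 9 on dpi 10. In OL the order on dpi 2 began with Spp1 (128) and Lgals3 (88.7), followed at a distance by Cd68 (8.29), Tyrobp (7.88) and Gpnmb (3.51), and on dpi 42 Lgals3 (63.0) and Spp1 (42.9) overlapped at the top.

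Between time points, 6 members were higher in total RNA on dpi 10 than on dpi 2 (Gpnmb, Trem2, Tyrobp, Lpl, Cst7 and Aif1) and Spp1 was lower, where 1.07% of genes were higher and 0.967% lower. The calls of Lpl and Aif1 were not steady when 1 library was left out. Lpl had 1.30 (q = 0.0129), and 1.30 (q = 0.0568) without dpi 2 total replicate 2 and 1.17 (q = 0.0638) without dpi 10 total replicate 2. Aif1 had 1.15 (q = 0.0295), and q of 0.0616 to 0.130 without any 1 of the 6 total RNA libraries compared. Without both libraries of dpi 2 pool 2, Lpl had q = 0.0574. Cd68 had 0.93 (q = 0.0364), under the fold threshold, and Lgals3 had -0.06 ± 0.40.

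In OL, 7 members were higher on dpi 10 than on dpi 2 (4.35% of genes) and Spp1 and Lgals3 were lower (3.00% of genes). The largest of these OL differences were those of Cst7 (2.76 ± 0.52), Gpnmb (2.08 ± 0.42) and Trem2 (2.06 ± 0.25). The OL calls of Cd68, Lpl and Aif1 were near the threshold. Cd68 had 1.05, and 0.87 without dpi 2 OL replicate 2. Without both libraries of dpi 2 pool 2, Cd68 had 0.81 (q = 0.0659) and Lpl 0.95 (q = 0.102). Lpl had 1.04, and q of 0.0525, 0.0699 and 0.0708 without dpi 2 OL replicate 1, dpi 2 OL replicate 2 or dpi 10 OL replicate 2. Aif1 had 1.17, and q of 0.0534 and 0.0570 without dpi 2 OL replicate 1 or dpi 10 OL replicate 2. With only the groups compared in the fit, the calls of Cst7 (2.75, q = 0.148) and Aif1 (1.14, q = 0.176) were lost.

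From dpi 10 to dpi 42 no member passed the threshold in total RNA or in OL, and the edgeR test gave an unadjusted p under 0.05 for 2 members in each fraction (Tyrobp and Spp1 in total RNA, Lgals3 and Trem2 in OL). In all genes, 0 rose and 0.0757% fell in total RNA, and 0.483% rose and 1.22% fell in OL. Against dpi 2, 5 members were still higher in total RNA on dpi 42 and Spp1 was lower (0.874% and 1.73% of genes), and 6 were higher in OL and Spp1 lower (3.68% and 2.73% of genes). The total RNA call of Lpl was at the threshold (1.03, q = 0.0411), and it was lost without any 1 of 21 libraries (values 0.91 to 1.11, q 0.0172 to 0.136), either because q passed 0.05 or because the value was under 1. It was also lost without both libraries of dpi 2 pool 2 (1.03, q = 0.128) and without the libraries of conflicting labels (1.11, q = 0.0612). The OL call of Aif1 (1.20) had q of 0.0752 and 0.0606 without dpi 2 OL replicate 1 or dpi 42 OL replicate 2. With only the groups compared, the OL calls of Trem2 (1.53, q = 0.0517), Cst7 (3.52, q = 0.0987) and Aif1 (1.18, q = 0.274) were lost.

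OL enrichment, OL against total RNA of the same group, was negative for most members. In naive tissue 6 of 9 members were OL depleted (log2 under -0.5 and q under 0.05), on dpi 2 8, on dpi 10 9 and on dpi 42 8, where 28.6%, 27.2%, 27.3% and 27.0% of all genes were. The member medians were -3.95, -3.82, -3.96 and -3.51, against -0.27, -0.19, -0.22 and -0.18 over all genes. None was OL enriched and none had a fitted value above 0, where 20.5% to 21.7% of genes were.

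For Cd68, OL enrichment was -4.19 ± 0.42 before injury and -4.26 ± 0.31, -4.14 ± 0.31 and -4.13 ± 0.31 on the 3 days after it. Tyrobp was at -4.70 ± 0.28, -4.31 ± 0.23, -4.41 ± 0.22 and -3.82 ± 0.22, Trem2 at -3.95 ± 0.30, -3.82 ± 0.26, -3.46 ± 0.25 and -3.51 ± 0.25, and Aif1 at -3.31 ± 0.42, -2.90 ± 0.35, -2.88 ± 0.34 and -2.39 ± 0.34. Cst7 had -4.62 ± 0.52, -4.17 ± 0.46 and -3.69 ± 0.44 after SCI, and in naive tissue its total RNA was at least 2.63-fold higher than OL. After SCI the values of Cd68, Tyrobp and Cst7 lay below those of Trem2 and Aif1 on each day. Spp1 was at -4.86 ± 0.23 in naive tissue and at -3.82 ± 0.21, -3.96 ± 0.21 and -3.39 ± 0.21 later.

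Gpnmb and Lpl were not called OL depleted in naive tissue with all libraries in the fit. Gpnmb had an OL enrichment of -0.25 ± 0.51 (q = 0.714), and Lpl of -0.73 ± 0.35 (q = 0.0833). After SCI, Gpnmb was at -2.94 ± 0.43, -4.08 ± 0.45 and -3.70 ± 0.44, and Lpl at -3.06 ± 0.35, -3.32 ± 0.35 and -2.53 ± 0.33. The naive values rested on pool 3. Without naive OL replicate 3, Gpnmb had -1.55 (q = 0.0121) and Lpl had -1.15 (q = 0.00935), and Lpl had -1.08 (q = 0.00733) without naive total replicate 3. Without both libraries of that pool they were OL depleted at -2.07 (q = 0.000405) and -1.65 (q = 5.35e-05).

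Lgals3 was called OL depleted on dpi 10 alone. Its OL enrichment was -0.42 ± 0.52 (q = 0.522) in naive tissue, -0.01 ± 0.40 (95% interval -0.84 to 0.81) on dpi 2, -1.45 ± 0.41 (q = 0.0047) on dpi 10 and -0.23 ± 0.40 (95% interval -1.06 to 0.60) on dpi 42. Without the libraries of conflicting labels the dpi 42 value was -0.83 ± 0.46 (q = 0.150). The intervals on dpi 2 and dpi 42 reach past the threshold of 0.5 on both sides.

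**Figure D3:**
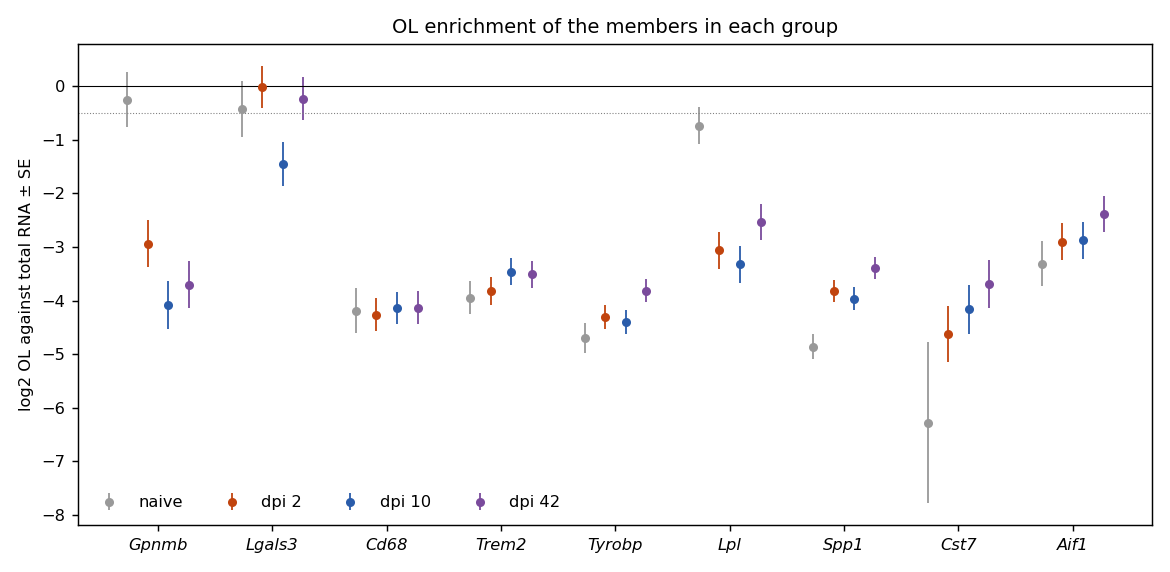
OL enrichment of each member, the log2 ratio of OL to total RNA with its SE, in naive tissue and on dpi 2, 10 and 42 (3 libraries per group and fraction), with a dotted line at -0.5. Cd68 lies at -4.1 to -4.3 in all 4 groups, and Lgals3 lies above the dotted line except on dpi 10. Gpnmb lies at -0.25 and Lpl at -0.73 in naive tissue, neither of them called, and both lie below -2 after SCI.

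Set against total RNA of its own tissue pool, the OL level of Cd68 was 1.39% to 10.0% in naive tissue, 3.21% to 6.92% on dpi 2, 4.95% to 6.51% on dpi 10 and 3.20% to 7.34% on dpi 42. Medians of Trem2, Tyrobp, Spp1 and Cst7 after SCI lay between 4.11% and 10.5%. The 7 pan-myeloid markers, none of them a member, had medians per gene of 2.48% to 15.9% over the 4 groups, with a middle value of 6.63%, 9.20%, 6.79% and 7.34%. Gpnmb after SCI (medians 12.4%, 6.06% and 7.03%) lay in that range. By day, the marker medians were 2.89% to 10.1%, 6.13% to 15.9% and 4.72% to 12.1% on dpi 2, 10 and 42. Gpnmb was thus above those of dpi 2, just below those of dpi 10 and among those of dpi 42. Lpl (11.5%, 10.1% and 15.9%) and Aif1 (16.7%, 13.4% and 20.2%) lay above the markers of the same day on dpi 2 and dpi 42. Lpl reached the upper end of the range over the 4 groups on dpi 42, and Aif1 lay above that range on dpi 2 and dpi 42. Lgals3 was above it at each time point, with 68.2% to 156% on dpi 2, 32.1% to 39.3% on dpi 10 and 33.4%, 83.1% and 179% on dpi 42. The last of these was the pool of conflicting labels. The naive ratios of Gpnmb were 20.2%, 29.8% and 422%, and those of Lpl 29.0%, 37.2% and 214%, the highest in pool 3 for both.

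**Figure D4:**
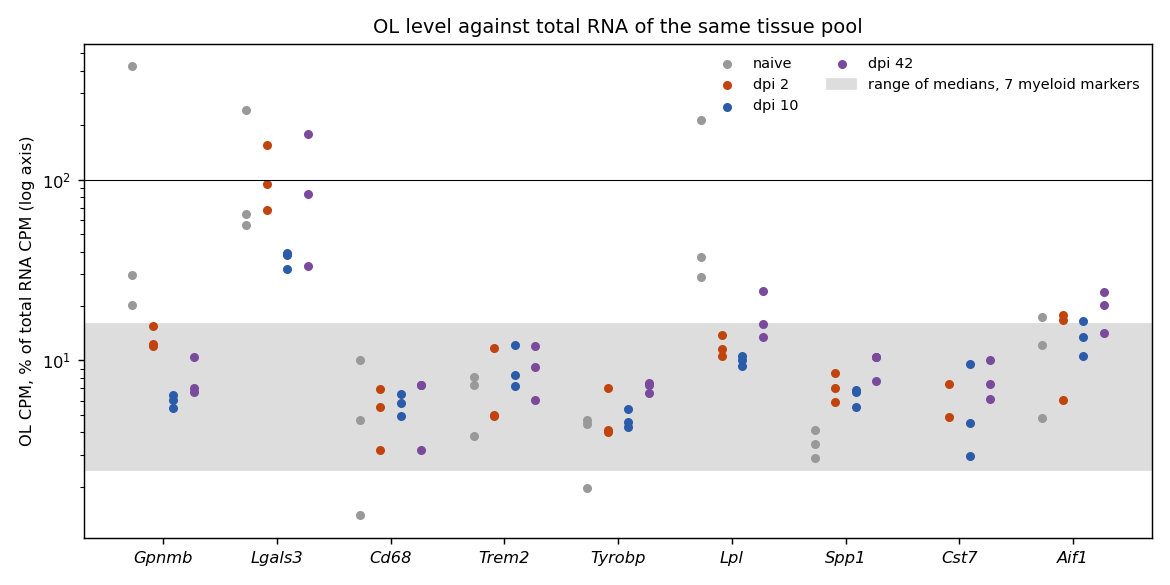
OL level of each member as a percentage of total RNA in the same tissue pool, on a log axis with a line at 100%, with 3 pools per group. The grey band spans the medians of 7 pan-myeloid markers over the 4 groups (2.48% to 15.9%), pools without an OL count are not drawn (Cst7, 3 naive pools and 1 on dpi 2), and Lgals3 lies above the band in all 12 pools.

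Whether the OL change and the total change of a gene differ was tested as differential OL enrichment, the interaction of the fit. On dpi 2, 1 member passed upwards and 2 downwards, on dpi 10 0 and 2, and on dpi 42 1 and 2, where 3.35% and 2.92%, 1.48% and 1.43%, and 1.56% and 1.42% of genes did. Gpnmb and Lpl passed downwards at each time point, and Spp1 upwards on dpi 2 and dpi 42. DESeq2 also gave 0 upwards on dpi 10, where the unadjusted edgeR p was under 0.05 for 1 member with a positive value, Spp1. With naive total RNA library 1 as the TMM reference the split over all genes on dpi 2 moved, to 297 upwards and 872 downwards in place of 575 and 501. These comparisons share the naive libraries, those of pool 3 among them.

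Gpnmb had a differential OL enrichment of -2.69 ± 0.66 (q = 0.00801) on dpi 2, -3.83 ± 0.66 (q = 0.000911) on dpi 10 and -3.45 ± 0.66 (q = 0.00254) on dpi 42. Without both libraries of naive pool 3 it was -0.87 ± 0.53 (q = 0.328), -2.01 ± 0.54 (q = 0.0320) and -1.64 ± 0.53 (q = 0.0655), so that 1 of the 3 calls was left, that of dpi 10. On dpi 2 the call was also lost without naive OL replicate 3 alone (-1.44, q = 0.127), and with only the groups compared in the fit (-2.68, q = 0.0572).

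Lpl had -2.33 ± 0.48 (q = 0.00237), -2.59 ± 0.48 (q = 0.00179) and -1.79 ± 0.48 (q = 0.0230). Without both libraries of naive pool 3 it was -1.41 ± 0.35 (q = 0.0118), -1.67 ± 0.35 (q = 0.00663) and -0.87 ± 0.35 (q = 0.136), so that the calls of dpi 2 and dpi 10 were left. The dpi 42 call was lost when the tissue pool was a block in the fit (-1.83, q = 0.0598), with only the groups compared (q = 0.107), and without naive total replicate 2 (-1.70, q = 0.0640), naive total replicate 3 (-1.45, q = 0.0510) or dpi 42 total replicate 3 (-1.67, q = 0.0645).

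Spp1 rose more in OL than in total RNA, by 1.04 ± 0.27 (q = 0.0130) on dpi 2 and 1.47 ± 0.27 (q = 0.00217) on dpi 42, with 0.90 ± 0.27 (q = 0.0492, under the fold threshold) on dpi 10. OL still held 5.55% to 10.5% of the total RNA level after SCI, against 2.89% to 4.10% in naive tissue. The dpi 42 call was past the threshold under every alternative run. On dpi 2 the value sat at the threshold of 1, and it fell below it without any 1 of 14 libraries, among them each naive, dpi 2, dpi 10 and dpi 42 OL library, naive total replicate 2 and dpi 2 total replicate 3 (0.72 to 0.97). On dpi 10 it passed without dpi 10 total replicate 2 (1.07, q = 0.0299).

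The other 6 members did not pass. Cd68 had -0.07, 0.05 and 0.06. Its SE of 0.71, 0.43 and 0.44 is not reliable so near 0, as it is derived from the value itself. Without dpi 42 OL replicate 1 the dpi 42 value was -0.0159 with an SE of 7.49. Trem2 had 0.13 ± 0.38, 0.48 ± 0.38 and 0.43 ± 0.38, and Tyrobp 0.39 ± 0.36, 0.29 ± 0.35 and 0.88 ± 0.36 (q = 0.144 on dpi 42). Aif1 had 0.41 ± 0.53, 0.44 ± 0.52 and 0.93 ± 0.53, and Lgals3 had 0.41 ± 0.66, -1.03 ± 0.66 and 0.19 ± 0.65. For Cst7, with no count in naive OL, the interval on dpi 42 was -1.25 to 6.43, and depth did not allow a difference to be seen.

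**Figure D5:**
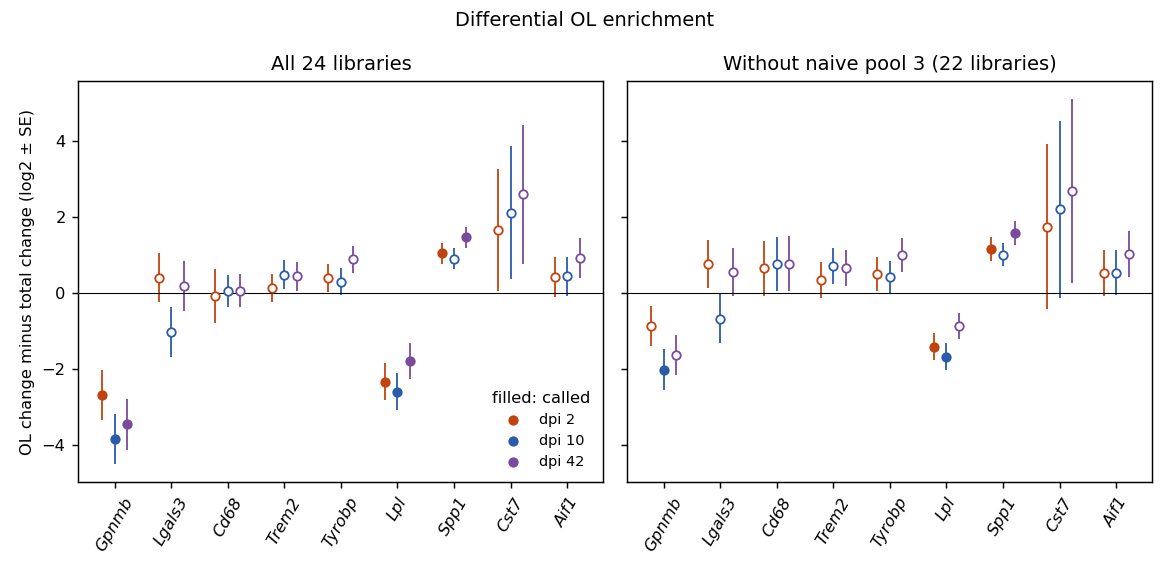
Differential OL enrichment of each member (OL change minus total change, log2 with SE) on dpi 2, 10 and 42, with all 24 libraries (left) and without both libraries of naive pool 3 (right). Filled points pass the threshold, as 8 do on the left; Gpnmb on dpi 2 moves from -2.69 to -0.87, while Spp1 on dpi 42 goes from 1.47 to 1.58.

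Partners of the members were described from a list of 15 genes that act with them. In total RNA, by day, 9, 11 and 10 of the 15 rose and none fell, with a median log2 fold change of 2.52, 2.87 and 2.19. Downstream of TREM2 and TYROBP, the kinase Syk rose by 2.53, 3.50 and 2.61, the phospholipase Plcg2 by 2.72, 2.70 and 2.19, and the inositol phosphatase Inpp5d by 2.31, 2.83 and 2.35. Hcst, the adaptor DAP10, had 3.21 (q = 0.0598) on dpi 2 and rose by 5.18 and 4.58 later, from a mean of 0.0750 CPM, and its dpi 42 call was lost without any 1 naive total RNA library or dpi 42 total replicate 1 (q of 0.0530 to 0.0750). Card9, which acts downstream of Clec7a, had 1.25, 1.12 and 1.22 (q of 0.0506 to 0.0882).

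Of the osteopontin receptors, Cd44 rose by 3.36, 2.60 and 2.21, and the integrin subunit Itgav had 0.60, -0.14 and -0.40. Lgals3bp, a glycoprotein that binds galectin-3, rose by 1.75, 3.33 and 3.07. Among cathepsins, which cystatins inhibit or which process other lysosomal proteases, Ctsc rose by 3.79, 3.29 and 2.69 and Ctsl by 2.52, 2.30 and 1.83. In lipid handling, Plin2, the coat protein of lipid droplets, rose by 2.99, 2.87 and 2.10. Apoe, a lipoprotein ligand of TREM2, had 0.03 on dpi 2 and rose by 3.26 and 3.17 later. The LPL inhibitor Angptl4 rose by 3.31 and 3.26 and had 0.94 on dpi 42, and the LPL anchor Gpihbp1 had no count in naive total RNA and a mean of 0.0574 CPM on dpi 10. Mitf, a transcription factor of Gpnmb in pigment cells, had 0.05, 0.44 and 0.50.

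Further lists were counted in total RNA in the same way, and the 3 genes named for each are those with the smallest p on dpi 10, with their log2 fold change on that day. Of 24 genes of disease-associated microglia, 15, 17 and 15 rose on dpi 2, 10 and 42 (medians 1.61, 2.29 and 1.91), and Cd83 fell on dpi 2 (-1.16), where 6.33% of all genes fell. Lyz2 (8.19), Ctsd (3.73) and Ctsz (3.58) came first. Of 14 genes of TREM2, DAP12 and Dectin-1 signalling 9, 10 and 10 rose (medians 2.63, 3.03 and 2.48), Fcer1g, Syk and Plcg2 first (4.60, 3.50 and 2.70). Of 20 uptake receptors and bridging proteins 12, 15 and 13 rose (medians 3.19, 3.51 and 2.93), with Itgb2, Fcgr1 and Fcgr2b first (4.46, 3.73 and 4.92).

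Of 22 genes of lipid loading and cholesterol handling 8, 14 and 11 rose (medians 0.91, 1.99 and 1.20), with Npc2 (1.54), Msr1 and Lipa (1.91) first, and Msr1 had no count in naive total RNA and 25.8 CPM on dpi 10. Of 12 cystatins and cysteine cathepsins 8, 9 and 6 rose (medians 1.61, 2.07 and 1.31) and Ctsf fell on dpi 2 (-1.09, named like Cd83 after its value was seen), with Ctsz, Ctsh and Ctsb first (3.58, 4.10 and 2.28). Of 9 receptors of osteopontin and GPNMB 4, 5 and 3 rose (medians 1.07, 1.16 and 0.58), with Itgb5, Itgb1 and Itga5 first (2.38, 1.16 and 4.28). Of 8 galectin family genes 3 rose at each time point (medians 1.45, 0.59 and 1.64), namely Lgals3bp, Lgals9 (2.17, 2.37 and 1.80) and Lgals1 (3.47, 1.87 and 1.48), and the Lgals1 call on dpi 42 (q = 0.0431) was lost in 12 of the 24 fits without 1 library. Of 4 MiT/TFE transcription factors 1, 1 and 0 rose (medians 0.45, 0.69 and 0.51), with an unadjusted edgeR p under 0.05 for 4 on dpi 42 and 1 called by DESeq2. The factor that rose was Tfec, which had no count in naive total RNA and 2.07 CPM on dpi 10, and Tfeb and Tfe3 had 0.80 and 0.58 on dpi 10.

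Markers of homeostatic microglia, monocytes and neutrophils were above naive in total RNA at each time point, as the members were. Summed CPM of 10 homeostatic microglia markers, P2ry12 and Tmem119 among them, was 326 to 420 in naive total RNA and 1205 to 1328, 1733 to 2206 and 1218 to 1537 on dpi 2, 10 and 42, with no gene at 0. Monocyte markers (5 genes) went from 1.08 to 1.84 CPM to 48.8 to 111, 28.3 to 38.6 and 8.66 to 19.3 CPM, thus with their highest level on dpi 2, as Spp1. Neutrophil markers (7 genes) were at 6.81 to 9.93 CPM in naive tissue and at 35.4 to 52.8, 76.7 to 103 and 44.8 to 66.7 CPM after SCI. Csf3r had the highest mean of these genes, and Ly6g had no count in naive or dpi 42 total RNA. The sum of 7 markers of T, B and dendritic cells was lower after SCI. It was 28.4 to 29.8 CPM in naive total RNA and 12.9 to 17.4, 13.1 to 18.7 and 19.2 to 26.6 CPM on dpi 2, 10 and 42. In OL the homeostatic microglia sum was 213 to 330 CPM in naive tissue and 318 to 330 CPM on dpi 10, and 4 of 5 monocyte markers had no count in naive OL. Fibroblast markers (5 genes) were at 63.4 to 86.0 CPM in naive total RNA and at 345 to 724, 1675 to 1854 and 438 to 714 CPM on dpi 2, 10 and 42. Their highest level was on dpi 10. The homeostatic microglia and neutrophil sums, Gpnmb, Trem2 and Tyrobp were also highest in total RNA on that day. The part of each cell type in the members' change was not tested.

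The genes whose course over the 8 groups was nearest to the average of the members, among 13668 genes with a mean of at least 1 CPM, were Cd48, Cd74, Igfbp6, H2-Ab1, Cd52, Arl11, H2-Aa and Cyba. The measure was the root mean square difference of centred log2 CPM over the 8 group means, which was 0.30 for Cd48 and 0.42 for Cyba. Among the members themselves it was smallest for Trem2 (0.60), Cd68 (0.64) and Tyrobp (0.66), and largest for Gpnmb (1.22), Spp1 (1.31) and Lgals3 (1.68), so that the last 3 follow the average least.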

How the data were processed

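Total spinal cord RNA and immunopurified OL polysome RNA of 12 tissue pools of 2 mice were sequenced on an Illumina instrument. The authors deposited raw read counts per gene, not normalised. The submitters' processing notes name FastQC 0.10.1, HTSeq 0.10.0 and the mouse build mm10 (GRCm38.p6). All 24 columns of samples were used, and 0 were set aside. Libraries held 25840127 to 32987841 counts.

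Genes with at least 10 counts over all libraries were kept. Counts were scaled by TMM and fitted with the quasi-likelihood test of edgeR 4.0.16 in R 4.3.3, with 8 groups of 3 libraries in 1 model, as OL or total RNA by time point. Contrasts were total change, OL change, OL enrichment, their interaction (differential OL enrichment) and changes between time points. Genes were called at q under 0.05 (Benjamini-Hochberg over all genes) and a log2 fold change past 1, or past 0.5 for OL enrichment. Floors of 3 counts per library cover counting error only. The p-values measure the spread between pools.

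The members and gene lists were chosen with earlier results of these data known. Named genes are the members, the partner list, 3 genes per pathway list by smallest p in the total change on dpi 10 with up to 3 called for differential OL enrichment, top marker genes, and the 8 genes of nearest course. Replicate libraries differed by more than sampling noise (median chi-square per gene 2.51 to 21.1). OL and total RNA of 1 pool come from the same mice. Deviations of the 2 libraries of a pool from their group means correlated at 0.04 to 0.14 in naive tissue, 0.09 to 0.11 on dpi 2, 0.02 to 0.06 on dpi 10 and -0.01 to 0.02 on dpi 42. The model without a pool term is reported, and a fit with the pool as a block was an alternative. Other alternatives were DESeq2 1.42.0 (its size factors and its Wald test), library sizes alone, fixed TMM references, other filters, only the groups compared, and fits without 1 library, 1 pool or the dpi 42 libraries of conflicting labels. The fits were tested on simulated data, in which each unchanged gene had 1 mean in all groups and all genes had 1 fixed spread. In these, 48% of differential OL enrichments of log2 1 and 100% of those of log2 2 on dpi 2 reached q under 0.05. The real libraries differ between OL and total RNA and vary more unevenly, so that the simulation does not speak for the calls made here. Clec7a was not analysed here, 2 genes of the marker lists are left out and not reported here, and the levels per length use exon lengths of GENCODE vM21.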

Additional observations from a re-analysis of the deposited data

Results flagged for a closer look

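The OL change and the total change of 3 members differed by the interaction test of the edgeR fit (log2 difference past 1, Benjamini-Hochberg q under 0.05 over all genes). For Gpnmb the OL change was smaller on dpi 2 (-2.69, q = 0.00801), dpi 10 (-3.83, q = 0.000911) and dpi 42 (-3.45, q = 0.00254). For Lpl it was smaller on dpi 2 (-2.33, q = 0.00237), dpi 10 (-2.59, q = 0.00179) and dpi 42 (-1.79, q = 0.0230). For Spp1 it was larger on dpi 2 (1.04, q = 0.0130) and dpi 42 (1.47, q = 0.00217). The Gpnmb and Lpl values share naive pool 3, whose OL library had the highest naive level of both genes, and of the 6 calls 3 were left without that pool. Groups held 3 libraries, too few to look for outliers within a group.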

How the results depend on the processing

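Over 273 results for single genes and 37 alternatives, of which 24 left out 1 library, 9577 of 9813 pairs kept direction and side of the threshold, 101 lost a call, 55 gained one and 80 changed sign. All values that changed sign had no call. All 9 members kept their total change calls under each alternative, and of their OL change calls those of Lpl and Cst7 on dpi 2 were lost under some.

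With library sizes alone, 13 in place of 8 lipid genes rose on dpi 2. Of the MiT/TFE factors, 1 in place of 0 rose on dpi 42 in the DESeq2 Wald test and without the dpi 42 libraries of conflicting labels. The 1 upward differential call on dpi 2 was 0 with library sizes alone and with either fixed TMM reference. The 2 downward calls on dpi 2 were 1 with only the groups compared and without naive pool 3, and the 2 on dpi 42 were 1 with only the groups compared and 0 without naive pool 3. With only the groups compared, 3 in place of 6 members were higher in OL on dpi 42 than on dpi 2. Fewer libraries estimate the spread there. Otherwise the cause was not tested.

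Counts over all genes moved further. With library sizes alone, 1536 in place of 3641 genes were OL enriched on dpi 10 and 7465 in place of 4680 OL depleted. With only the groups compared, 2420 and 1753 in place of 1580 and 1144 genes rose in total RNA on dpi 10 and 42, and 730 and 744 in place of 1170 and 1466 rose in OL. With the naive total TMM reference, 119 genes passed upwards and 469 downwards for differential OL enrichment on dpi 10, and 134 and 554 on dpi 42, in place of 254 and 245, and of 267 and 243.

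With the tissue pool as replicate block, 1 of the 2 downward differential calls on dpi 42 was left (Lpl lost its call), the Lgals3 OL enrichment on dpi 2 was 0.0022 and its differential value on dpi 42 was -0.0913. With the replicate number as a block, which names no shared animal across time points, Lpl on dpi 42 against dpi 2 in total RNA lost its call (1.04, q = 0.0601), and Hcst on dpi 2 gained one (q = 0.0409). No block changed another call of a single gene.

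Leaving out 1 library gave 0 to 1 MiT/TFE factors on dpi 42, 1 to 2 members lower in OL on dpi 10 than on dpi 2, 0 to 1 higher in OL on dpi 42 than on dpi 10, 1 to 2 downward differential calls on dpi 2 and on dpi 42, and 0 to 1 upward ones on dpi 2 and on dpi 10. Uncalled values that changed sign ranged, as differential OL enrichment, from -0.26 to 0.61 (Aif1, dpi 2), -0.73 to 0.37, -0.52 to 0.58 and -0.54 to 0.55 (Cd68, dpi 2, 10 and 42), -0.55 to 0.86 and -0.77 to 0.64 (Lgals3, dpi 2 and 42), -0.56 to 0.23 (Trem2, dpi 2), and -0.15 to 0.54 and -0.16 to 0.53 (Tyrobp, dpi 2 and 10). As OL enrichment they ranged from -1.55 to 0.32 (Gpnmb, naive, called at its lowest) and -0.87 to 0.54, -0.21 to 0.10 and -0.63 to 0.0792 (Lgals3, naive, dpi 2 and dpi 42). In total RNA they ranged from -0.0014 to 0.18 (Apoe, dpi 2), -0.0858 to 0.20 (Mitf, dpi 2) and -0.25 to 0.0578 (Lgals3, dpi 10 against dpi 2).

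By scaling, sign also changed for Itgav on dpi 10 (0.0390 with library sizes, 0.0119 with the naive total TMM reference, 0.00903 with only the groups compared), Lgals3 OL enrichment on dpi 2 (0.0729, naive OL reference), and differential values of Trem2 on dpi 2 (-0.12, naive total reference), Cd68 on dpi 10 (-0.0237 with library sizes, -0.19 and -0.0497 with the naive total and naive OL reference), Cd68 on dpi 42 (-0.17 and -0.0419 with the same references) and Lgals3 on dpi 42 (-0.0665, naive total reference). Without dpi 2 pool 2 it changed for Apoe (-0.0014), Lgals3 OL enrichment (0.24), Cd68 differential on dpi 2 (0.19) and Lgals3 on dpi 10 against dpi 2 (0.0577). Without naive pool 3 it changed for Mitf on dpi 2 (-0.0858) and Cd68 differential on dpi 2 (0.64), and without the conflicting dpi 42 libraries for the differential values of Lgals3 (-0.41) and Cd68 (-0.0774) on dpi 42.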

Other observations

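Lysosomal hydrolases and 1 osteopontin receptor subunit of the pathway lists had an OL enrichment that fell with injury at all 3 time points, and these are the 5 genes named by rule whose differential OL enrichment passed the threshold (log2 past 1, q under 0.05 in the edgeR test) each time. The cathepsin Ctsz was OL enriched in naive tissue (1.42 ± 0.12, SE), with means of 119 CPM in OL and 44.4 CPM in total RNA, and OL depleted on dpi 10 (-1.42 ± 0.12), with 198 and 529.9 CPM. Its differential OL enrichment was -2.29, -2.84 and -2.37 on dpi 2, 10 and 42. Lipa, the lysosomal acid lipase that frees cholesterol from its esters, went from 0.83 ± 0.16 to -1.49 ± 0.16 on dpi 10 (differential values -1.90, -2.32 and -1.86), and the integrin subunit Itgb5 from 0.95 ± 0.14 to -1.24 ± 0.14 (-1.82, -2.20 and -1.92).

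The aspartic protease Ctsd and the serine carboxypeptidase Ctsa, which protects other lysosomal enzymes, differed in their start. Ctsd had an OL enrichment of 0.27 ± 0.13 in naive tissue and of -2.65 ± 0.14 on dpi 10, where its total RNA mean was 3667 CPM against 276 CPM in naive tissue (differential values -1.67, -2.93 and -2.49). Ctsa was OL enriched in naive tissue (1.76 ± 0.12) and at -0.01 ± 0.12 on dpi 10 (-1.49, -1.76 and -1.73). No alternative run, fits without naive pool 3 among them, took any of these 15 differential calls past the threshold to the other side.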
